A study of Mus musculus with 18 samples.

Results

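Busulfan was compared with no busulfan across 3 concentrations of alginate oligosaccharide (AOS), short sugar chains made from the alginate of brown algae, in cultured mouse testes. All 18 of the 18 samples of the data entered: the 9 busulfan samples were set against the 9 samples without busulfan, with AOS concentration as a block, and the members of the comparison are therefore whole samples, not genes chosen by their values. A0, A10 and A50 were testes of ICR mice that received no busulfan, cultured with 0, 10 or 50 μg/mL AOS. B0, BA10 and BA50 were testes of ICR mice given a single dose of busulfan (40 μg per g body weight) at 3 weeks of age, cultured with the same 3 concentrations. Testes of both kinds were taken 2 weeks after that injection and kept for 48 h in DMEM/F12 medium with 10% fetal bovine serum, so every sample, controls included, carries the culture and the serum. Each of the 6 groups had 3 samples. The methods describe several testes per treatment and repeated cultures, and the labels do not say whether the 3 samples of a group were separate animals, separate cultures or pools, so p values measure the spread between these samples, which may be technical. The series' design text gives AOS per kg body weight, and the sample labels' unit of the medium is used here.

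Busulfan is a bifunctional alkylating drug that crosslinks DNA and kills dividing germ cells in the testis. Spermatogenesis runs from undifferentiated spermatogonia through differentiating spermatogonia, which divide and then enter meiosis, to spermatocytes, haploid round spermatids and elongating spermatids whose chromatin is packed with protamines. Sertoli cells nurse the germ cells inside the tubule, while Leydig, peritubular myoid, endothelial and immune cells lie in and around its wall. Because whole testis RNA was measured, fewer cells of a type and less RNA per cell cannot be told apart in any value below.

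Expression was given as FPKM, a fragment count scaled by gene length and by the sample's total. Because each value is a share of that total, less RNA from some cells can raise the values of genes of other cells. The part of this in the rises below was not tested. Column totals ran from 463970 to 511274 FPKM over 22657 genes, and the depth behind them is unknown. Pearson's r across genes between samples of the same group lay between 0.929 and 0.988, on the log2(FPKM + 1) scale. A10 replicate 3 stood apart from the other A10 samples. No pair of samples was identical. The 15790 genes that reached 1 FPKM in 3 or more samples were tested with limma on log2(FPKM + 1), and a gene was called at a Benjamini-Hochberg adjusted p under 0.05. All log2 changes below are busulfan minus no busulfan on this scale, which makes the change of weakly expressed genes look smaller than it is, and errors are standard errors with 9 samples in each arm. The filter can be passed through one arm alone, so a gene near 0 in the other arm had to differ to be tested.

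Over the 3 doses, 2165 genes were called higher after busulfan (13.7% of the genes tested) and 3967 were called lower (25.1%), together 38.8%. The falls were larger than the rises. Among the called genes, the median change was 0.33 in the genes called higher and -0.48 in the genes called lower. Of the falls, 570 were at least 1 in log2 size and 81 at least 2, while 30 rises reached 1. With the study's own limits of an adjusted p of at most 0.001 and a log2 change of at least 1, 13 genes were higher (0.0823%) and 557 lower (3.53%). All 9 busulfan values lay above all 9 values without busulfan in 81 genes (0.513%) and below them in 1525 genes (9.66%). Without A10 replicate 3, the calls numbered 2357 higher and 4276 lower. The balance of the calls moved with the scaling of the samples: 35.3% of the called genes were higher with the values as deposited, 47.4% after median ratio scaling (3168 higher, 3516 lower) and 52.2% after quantile normalization (3812 higher, 3496 lower). No gene called with the values as deposited was called in the opposite direction under these scalings.

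The changes at 0, 10 and 50 μg/mL rest on different samples, and over all genes tested 63% had the same direction at all 3 doses (29.4% higher and 33.5% lower). Among the called genes, 98.7% did (2114 higher and 3940 lower), a share that the call itself favours, because the pooled change is the average of the changes at the 3 doses. Across the 15790 genes, the change at 0 μg/mL had a Pearson's r of 0.72 with the change at 10 μg/mL and 0.68 with that at 50 μg/mL, and the latter pair had 0.72. These correlations are across genes, which are not independent replicates. The changes at single doses were tested in 1 fit of all 18 samples, so each test drew its spread from all 6 groups. In that fit, 232 genes were higher (1.47%) and 1941 lower (12.3%) in B0 than in A0. BA10 had 591 higher (3.74%) and 2396 lower (15.2%) than A10, and BA50 had 584 higher (3.7%) and 2559 lower (16.2%) than A50. The interaction of busulfan and dose, tested with limma's F test, called 0 genes, with a smallest adjusted p of 0.403 and 587 genes (3.72%) at an unadjusted p under 0.05.

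**Figure D1:**
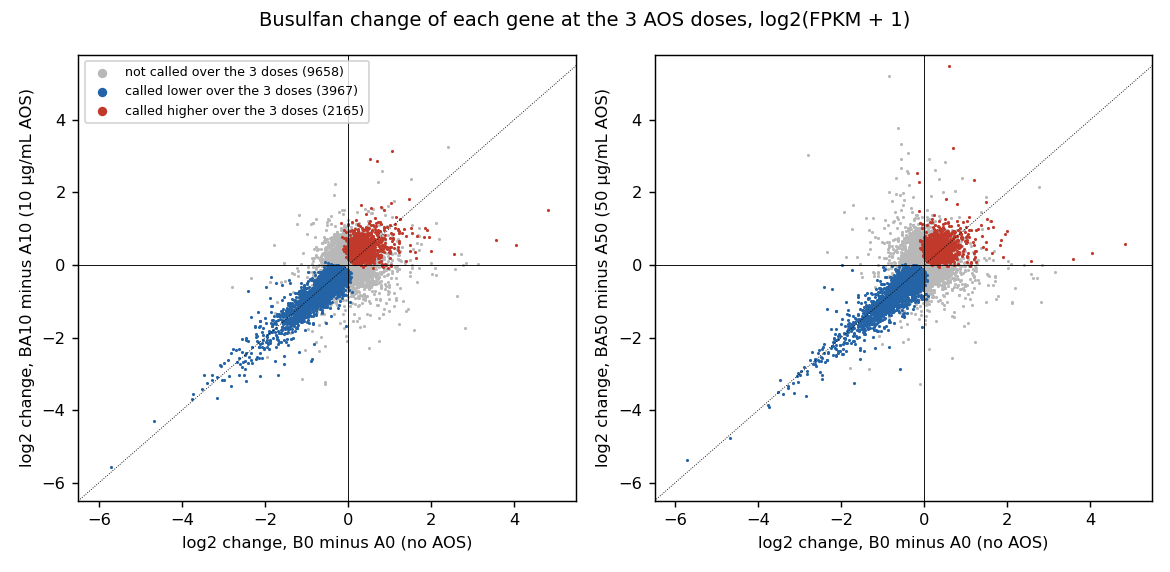
Each point is a tested gene, with its log2 change at 0 μg/mL AOS (B0 minus A0) on the horizontal axis and at 10 (left) or 50 μg/mL (right) on the vertical axis, both on the log2(FPKM + 1) scale. Red and blue mark the 2165 genes called higher and the 3967 called lower over the 3 doses, grey the 9658 not called, and the dotted line marks equal change. The blue genes run along the dotted line down to a change below -5, while most red genes sit within 1 of zero.

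Many rises were called only over the doses together. Of the genes called higher, 1235 (57.0%) were called at no single dose. Of these, 1226 were higher at all 3 doses, a count that the pooled call itself favours. The 1235 rises had a median change of 0.30 and ran from 0.11 to 2.27, so not all were small. In 57 of them the 3 busulfan values lay above the 3 values without busulfan at all 3 doses. This held at 2 doses in 384, at 1 dose in 636 and at 0 doses in 158. Among the genes called lower, 997 (25.1%) were called at no single dose, 992 of them lower at all 3, with a median change of -0.29. Their busulfan values lay below the others at 3, 2, 1 and 0 doses in 73, 383, 411 and 130 genes. Over all genes tested, the 3 busulfan values lay above the 3 values without busulfan at every dose in 290 genes (1.84%) and below them at every dose in 2233 genes (14.1%). Of these, 289 were among the genes called higher and 2232 among those called lower. When the samples of a dose were removed, 810 genes were called higher without the samples at 50 μg/mL, 1331 without those at 10 μg/mL and 1483 without those at 0 μg/mL, whereas the genes called lower numbered 2955 to 3550.

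The largest falls included genes known from germ cells and meiosis. Tex101, a glycoprotein of the germ cell surface, had 87.94, 100.47 and 126 FPKM (lowest, median and highest of 9) without busulfan and 0.62, 1.05 and 1.73 FPKM after it. The arms were far apart in every sample, with a change of -5.56 ± 0.08 (limma adjusted p 5.38e-18). Stra8, which germ cells need to start meiosis, had 14.16, 23.88 and 35.41 FPKM without busulfan and at most 0.12 FPKM after it, and 4 of the 9 busulfan samples listed it at 0. Its change was -4.58 ± 0.12 (limma adjusted p 3.66e-14).

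Hormad1 and Sycp3 belong to the protein axis along meiotic chromosomes. Hormad1 had 45.46, 59.22 and 68.12 FPKM without busulfan and 2.15, 3.89 and 4.88 FPKM after it, a change of -3.74 ± 0.12 (limma adjusted p 2.07e-13). Sycp3 had 108.88, 116.09 and 137.18 FPKM without busulfan and 8.25, 12.69 and 14.82 FPKM after it, a change of -3.28 ± 0.09 (limma adjusted p 7.94e-14). In both genes every busulfan sample lay far below the lowest sample without the drug. Dazl, an RNA-binding protein of germ cells, had 40.87, 69.0 and 78.38 FPKM against 2.72, 4.13 and 11.17 FPKM. Slc25a31, the ADP/ATP carrier of the germ line, had 18.8, 22.93 and 27.92 FPKM against 0.63, 1.41 and 1.86 FPKM. The 10 largest falls were completed by Mov10l1 and Piwil1, described with the PIWI pathway, by Prss50 (a serine protease of the testis, -3.22 ± 0.12) and by Gm364 (-3.22 ± 0.15). In all 10 the arms did not overlap, and each fell by at least 3 at every dose.

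Because several of these genes moved by like amounts, their promoters were read for an E-box, the letters CACGTG, which are the same on both strands. In the 250 bases before the RefSeq transcription start (GRCm38.p6), the letters stood in 6 of the 10 genes, namely Gm364, Hormad1, Mov10l1, Piwil1, Slc25a31 and Sycp3. They stood in 9.39% of the 11797 tested genes for which a promoter was listed and in 6.86% of all 27025 genes with a listed promoter. A gene counted if any of its listed promoters held them. Among the 81 genes with a fall of at least 2, 62 had a listed promoter and 20 of these held the letters (32.3%), compared with 31 of 372 (8.33%) among falls of 1 to 2. The letters also stood in 9.5% of genes called higher and in 4 of 18 p53 targets (22.2%), a list described below. Other motifs were searched in the same windows. TCCCGC stood in 3 of the 10 largest falls (30.9% of tested genes), TGACNNNGC in 3 (13.4%) and TGACGTCA in 0 (2.78%). The E-box was chosen for display with the falls known, so the shares are a description. For 4 of these promoters, chosen because the motif and a large fall meet there, 100 bases are given 5′ to 3′ with CACGTG in capitals. All lie on the plus strand, as chr3:95559565-95559664 for Hormad1, chr10:88459468-88459567 for Sycp3, chr3:40708723-40708822 for Slc25a31 and chr5:128736012-128736111 for Piwil1.
Hormad1: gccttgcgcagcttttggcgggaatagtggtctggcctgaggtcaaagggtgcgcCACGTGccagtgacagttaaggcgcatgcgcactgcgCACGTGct
Sycp3: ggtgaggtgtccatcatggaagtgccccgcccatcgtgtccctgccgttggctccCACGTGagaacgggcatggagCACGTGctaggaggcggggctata
Slc25a31: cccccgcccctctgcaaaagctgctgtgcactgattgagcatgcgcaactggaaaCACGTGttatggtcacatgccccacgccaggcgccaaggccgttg
Piwil1: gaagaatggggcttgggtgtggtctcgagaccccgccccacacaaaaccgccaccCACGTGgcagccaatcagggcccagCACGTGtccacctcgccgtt
The first E-box began 57 bases before the start in Hormad1, 64 in Sycp3, 93 in Slc25a31 and 179 in Piwil1. A second match followed in Hormad1 (20 bases before the start), Sycp3 (43) and Piwil1 (154).

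**Figure D2:**
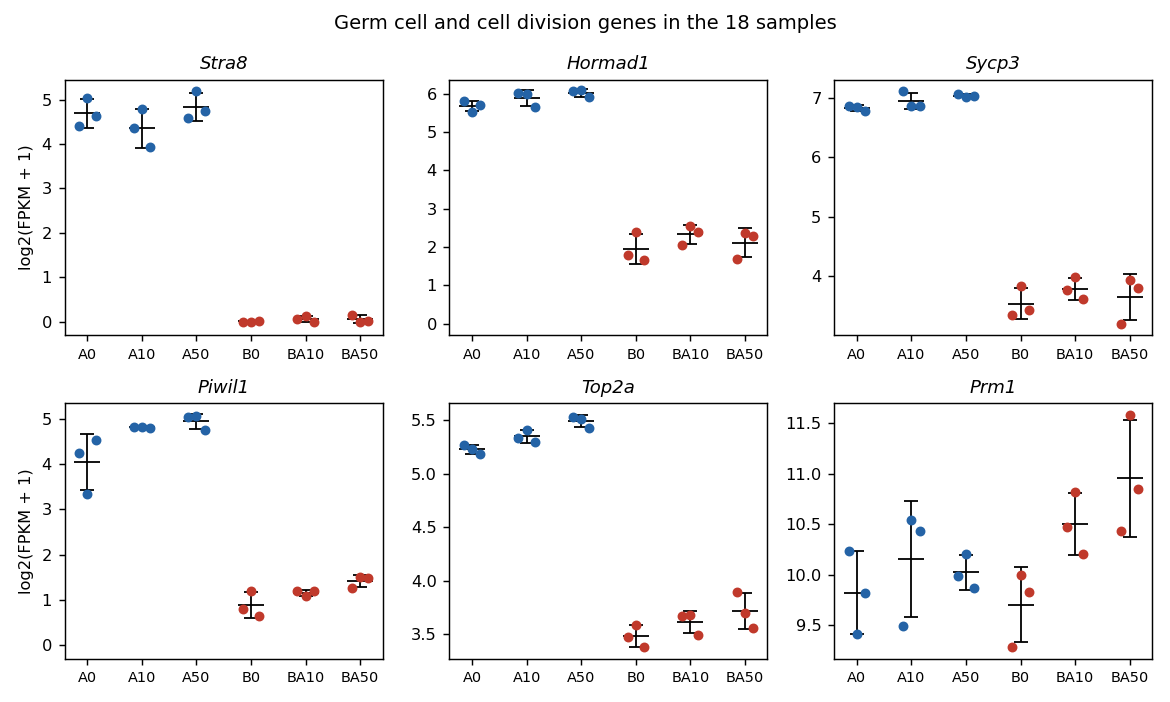
FPKM of 6 genes in the 18 samples on the log2(FPKM + 1) scale, with blue points for samples without busulfan, red points for busulfan samples, and bars for the mean and SD of the 3 samples of a group. The arms are apart in every panel except that of Prm1, where B0 lies level with the groups without busulfan and BA50 reaches 3056.72 FPKM.

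Germ cell genes were grouped by stage, and over the 3 doses the list medians were below zero up to late spermatocytes and above zero in spermatids. Up to 4 called members a list are named by the smallest p, and further members are named after their values were seen. Of 15 markers of undifferentiated spermatogonia, 11 were tested, 4 fell and 1 rose, with a median change of -0.27. Of all genes tested, 25.1% were called lower and 13.7% higher, with a median of 0.012, and the counts of each list below are to be read beside these shares. At an unadjusted limma p under 0.05, 3099 of all 15790 genes tested were higher and 4449 lower, and unadjusted list counts are to be read beside these. With sample quality weights 7 members fell and without A10 replicate 3 it was 6. The median was -0.15 after quantile normalization and -0.03 with the stricter filter (a mean of at least 5 FPKM, 5 members tested). The falls were those of Lin28a, an RNA-binding protein (-1.92 ± 0.08), Id4 (-1.32 ± 0.08), Sall4, a zinc finger factor of stem cells (-1.30 ± 0.08), and Ret, the receptor through which GDNF acts (-0.43 ± 0.12). Ret was not called without the samples at 0 μg/mL or without those at 10 μg/mL. Sall4 had 0.93 to 2.33 FPKM without busulfan and at most 0.02 FPKM after it. Etv5, a transcription factor downstream of GDNF, rose by 0.28, but was called at no single dose. No rise was called in this list under 9 of 32 alternatives, namely without the samples at 10 μg/mL or at 50 μg/mL, or without any of A0 replicate 1, A10 replicate 2, A50 replicates 1 and 2, BA10 replicates 1 and 3, and BA50 replicate 1. Gfra1, the co-receptor of GDNF, had a median of 2.18 FPKM without busulfan and 1.64 FPKM after it and was not called (limma adjusted p 0.15).

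In the list of differentiating spermatogonia and meiotic entry, falls were again the rule. Of its 12 tested members (13 listed), 10 fell and 0 rose, by limma or at an unadjusted p under 0.05, with a median of -1.38. In 8 members all busulfan values lay below all others, as in 9.66% of all genes tested. Bhmg1, the gene of the STRA8 partner also named Meiosin, had 3.17, 4.54 and 7.75 FPKM without busulfan and 0.03, 0.08 and 0.13 FPKM after it. The paired factors Sohlh1 and Sohlh2, which drive spermatogonial differentiation, fell by 1.97 and 2.30 on the log2 scale. Kit, the receptor of differentiating spermatogonia, overlapped more: it had 8.16, 12.04 and 16.48 FPKM against 2.91, 8.79 and 10.65 FPKM (-0.58 ± 0.16, limma adjusted p 0.0096). Ccnd2 (0.02) and Rec8 (0.14) were not called.

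In the list of early meiotic prophase, 25 of 27 tested members (29 listed) fell (25.1% of all genes tested were called lower) and 0 rose, also at an unadjusted p under 0.05, with a median of -1.28 that was nearly the same at each dose (-1.27, -1.27 and -1.37 at 0, 10 and 50 μg/mL). Besides Hormad1 and Sycp3, Meiob, a single-strand DNA-binding protein of meiotic recombination, had 7.21, 9.71 and 11.1 FPKM without busulfan and 0.73, 0.86 and 1.34 FPKM after it (-2.46 ± 0.08). Hormad2 fell by 2.23 on the log2 scale. Dmc1, the recombinase of meiosis, and Spo11, which makes the meiotic DNA breaks, fell by 2.48 and 1.99. The members not called were Syce2 (-0.21) and Syce3 (-0.24), central parts of the synaptonemal complex. Among late spermatocyte genes, 16 of 18 fell and 0 rose, also at an unadjusted p under 0.05, with a median of -0.87. Ccnb3, a cyclin of meiosis (-2.05 ± 0.11), Cks2 (-1.56 ± 0.12) and Mybl1, a transcription factor of pachytene spermatocytes (-1.52 ± 0.10), fell with arms apart. Ldhc and Hspa2 fell by 0.58 and 0.85, and Pgk2, a retrogene that stands in for its X-linked parent, was not called (0.01).

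Most spermatid genes were not called. Of 22 round spermatid genes, 11 were higher and 5 lower at an unadjusted p under 0.05, beside 3099 and 4449 of all 15790 genes tested. By adjusted p, 4 of the 22 fell, 2 rose and 16 were not called, with a median of 0.39. The falls were those of Dpy19l2 and Zpbp2, which build the acrosome region (-0.99 ± 0.14 and -0.82 ± 0.16), Rfx2, a transcription factor of spermiogenesis (-0.66 ± 0.13), and the sperm calcium channel gene Catsper2 (-0.55 ± 0.14), which was not called without the samples at 50 μg/mL. Spata46 and Sun5 rose by 0.52 each (limma adjusted p 0.033 and 0.047). The rises hung on single samples: the list held 11 without A10 replicate 3, 9 without A0 replicate 1, 5 without BA10 replicate 3, 3 without BA50 replicate 1, 1 without A50 replicate 1, and 0 without any of A0 replicates 2 and 3, A10 replicates 1 and 2, A50 replicates 2 and 3, B0 replicates 1 and 2, BA10 replicate 2, and BA50 replicates 2 and 3. Of 19 tested genes of elongating spermatids (20 listed), limma called 0, while 5 were higher at an unadjusted p under 0.05, beside 3099 of all 15790. Without A0 replicate 1 it called 8, without A10 replicate 3 it called 6, without BA10 replicate 3 it called 3 and without B0 replicate 3 it called 1. The list's median was 0.38 over the doses and -0.12, 0.35 and 0.92 at 0, 10 and 50 μg/mL. Prm1, a protamine, had 679.41, 1014.98 and 1489.6 FPKM without busulfan and 621.92, 1381.88 and 3056.72 FPKM after it, with overlapping arms and no call (limma adjusted p 0.15). Tsga8, an X-linked gene of haploid germ cells, had the smallest p of the list (0.41 ± 0.17, limma adjusted p 0.0631).

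**Figure D3:**
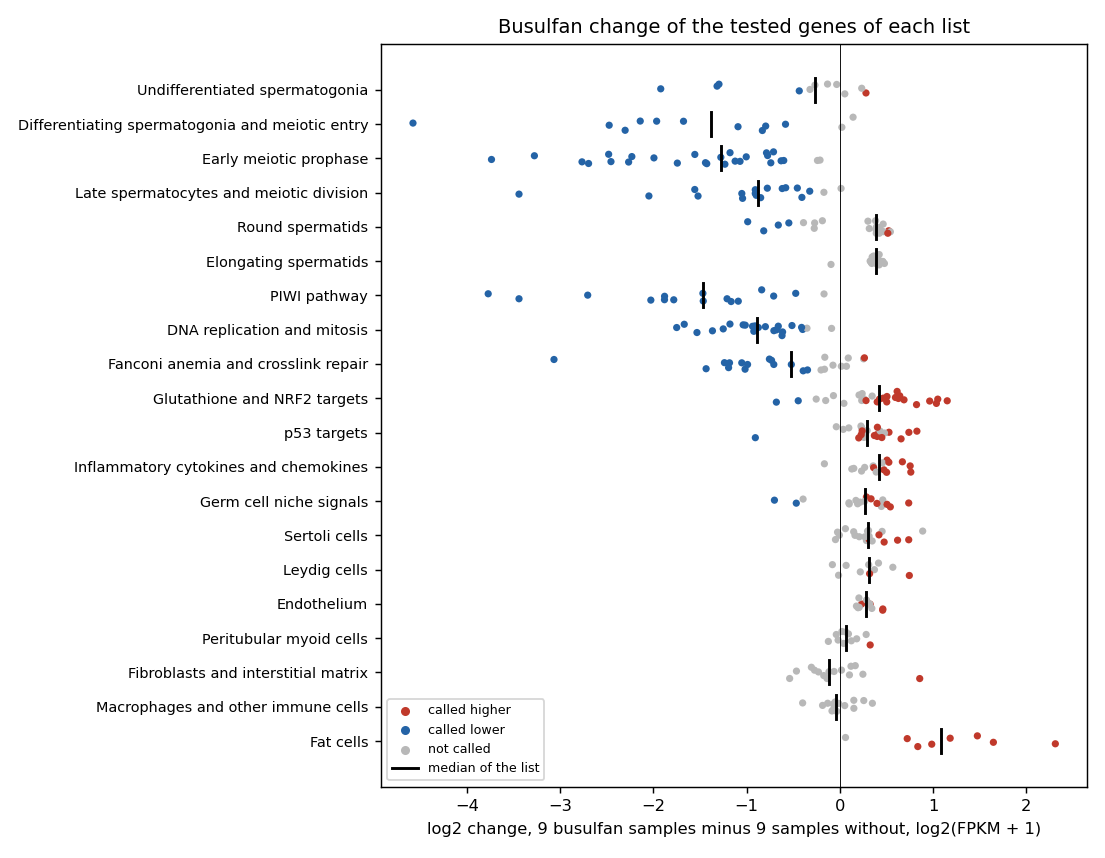
Each point is a tested gene of a list, placed by its log2 change between the 9 busulfan samples and the 9 samples without, on the log2(FPKM + 1) scale, and black bars mark list medians. Lists from meiotic entry to late spermatocytes, the PIWI pathway, replication and crosslink repair lie left of zero (medians -1.47 to -0.52), spermatid lists lie at 0.38 to 0.39, and the glutathione and p53 lists have most of their points on the right.

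The PIWI pathway, in which germ cells use small RNAs bound to PIWI proteins to silence transposons, fell almost throughout. Of 16 tested members (17 listed), 15 fell and 0 rose, also at an unadjusted p under 0.05, with a median of -1.47. In 11 members all busulfan values lay below all others, as in 9.66% of all genes tested. Mov10l1, the helicase that feeds piRNA precursors into processing, had 13.89, 20.52 and 23.89 FPKM without busulfan and 0.27, 0.52 and 0.65 FPKM after it (-3.77 ± 0.08, limma adjusted p 1.02e-15). Piwil1, the PIWI protein MIWI, had 9.13, 26.72 and 32.18 FPKM against 0.56, 1.29 and 1.85 FPKM (-3.44 ± 0.13). Its A0 values spread more than those of A10 and A50, yet all lay above every busulfan value. The Tudor protein gene Tdrd1 fell by 2.70 and Pld6, the mitochondrial factor that helps form piRNA ends, by 2.03. Gtsf1 was the member not called (-0.17). CACGTG stood in the promoter window of 7 of the 14 members with a listed promoter (50%).

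Genes of DNA replication and mitosis also fell as a list, 23 of 25 with 0 rises by limma or at an unadjusted p under 0.05, and a median of -0.89. Top2a, the topoisomerase of dividing cells, had 35.4, 39.38 and 45.35 FPKM without busulfan and 9.43, 11.04 and 13.84 FPKM after it (-1.75 ± 0.05, limma adjusted p 7.58e-14), and its changes at the 3 doses were -1.74, -1.73 and -1.77. The spindle checkpoint kinase gene Bub1b (-1.67 ± 0.05), Cdc20, the activator of anaphase (-1.37 ± 0.08), and Mki67, the proliferation marker (-1.25 ± 0.08), were apart as well. Rrm2 (-0.35) and Tyms (-0.09), both enzymes that supply nucleotides, were not called.

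The Fanconi anemia pathway repairs the DNA crosslinks that busulfan makes. Of its 23 genes, 14 fell, 1 rose and 8 were not called, with a median of -0.52. The fall was led by Ube2t, the ubiquitin-conjugating enzyme of the pathway, with 26.46, 36.53 and 41.87 FPKM without busulfan and 2.68, 3.24 and 4.1 FPKM after it (-3.07 ± 0.06, limma adjusted p 2.47e-16). Fancg fell by 1.18 and Brca2 by 1.05, both with arms apart. Fancc, Fancl and Fancm did not pass the test (-0.16, -0.20 and -0.16). Ercc1, part of the nuclease that cuts beside a crosslink, rose by 0.26 (limma adjusted p 0.044). No rise was called in this list under 17 of 32 alternatives: with the replicate block, with 6 group means, with no filter, without any of the 3 doses, or without any of A0 replicates 1 and 3, A10 replicates 1 and 3, A50 replicates 2 and 3, B0 replicates 1 and 3, BA10 replicate 2, and BA50 replicates 1 and 3. All of these lists are also lists of genes active in dividing or meiotic germ cells, and their falls came with those of the germ cell lists above (medians of -1.38 to -0.87 from meiotic entry to late spermatocytes), whose part in them was not tested.

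Rises were smaller than the falls, and a list with many of them was that of the glutathione system and the targets of NRF2, the transcription factor that answers oxidants and electrophiles. Of 27 genes, 16 rose (13.7% of all genes tested were called higher), 2 fell and 9 were not called, with a median of 0.43, and 8 of the 16 rises were called at no single dose. Without the samples at 50 μg/mL, 10 rises were called. Nqo1, a quinone reductase, had 10.29, 17.2 and 31.52 FPKM without busulfan and 29.24, 40.2 and 57.57 FPKM after it. Only A10 replicate 2, at the top of its arm, reached into the busulfan values, and the change was 1.15 ± 0.14 (limma adjusted p 4.89e-06), with 1.36, 1.00 and 1.11 at the 3 doses. Srxn1, which repairs oxidized peroxiredoxins, had 36.54, 46.63 and 86.0 FPKM against 79.02, 115.37 and 129.33 FPKM (1.04 ± 0.14, limma adjusted p 1.03e-05). Txnrd1, thioredoxin reductase, rose by 0.69 ± 0.11 and Gsto1, a glutathione transferase, by 0.60 ± 0.09.

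The cystine transporter gene Slc7a11, which brings in the building block of glutathione, had medians of 14.92 and 33.72 FPKM and rose by 0.96 (limma adjusted p 7.2e-05). The subunits of the enzyme that starts glutathione synthesis, Gclc and Gclm, rose by 0.43 and 0.51, and Gss, the enzyme of the next step, by 0.28. Gsr, which recycles oxidized glutathione, was not called (0.24). Among the transferases Gsta1 (1.05), Gstp1 (0.82), Gsta2 (0.63), Gsta3 (0.62) and Gsta4 (0.47) rose, while Gstt3 (-0.68) and Gstt2 (-0.45) fell and the 6 tested Gstm genes were not called. Transferase genes of 1 class are close copies, so reads may have been divided among them with some uncertainty. TGACNNNGC, the core of the element that NRF2 binds, searched on both strands, stood in 4 of the 13 risen members with a listed promoter (30.8%) and in 13.4% of the tested genes with one. It also stood in 2 of 9 members that were not called higher (22.2%) and in 3 of the 10 largest falls (30%).

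**Figure D4:**
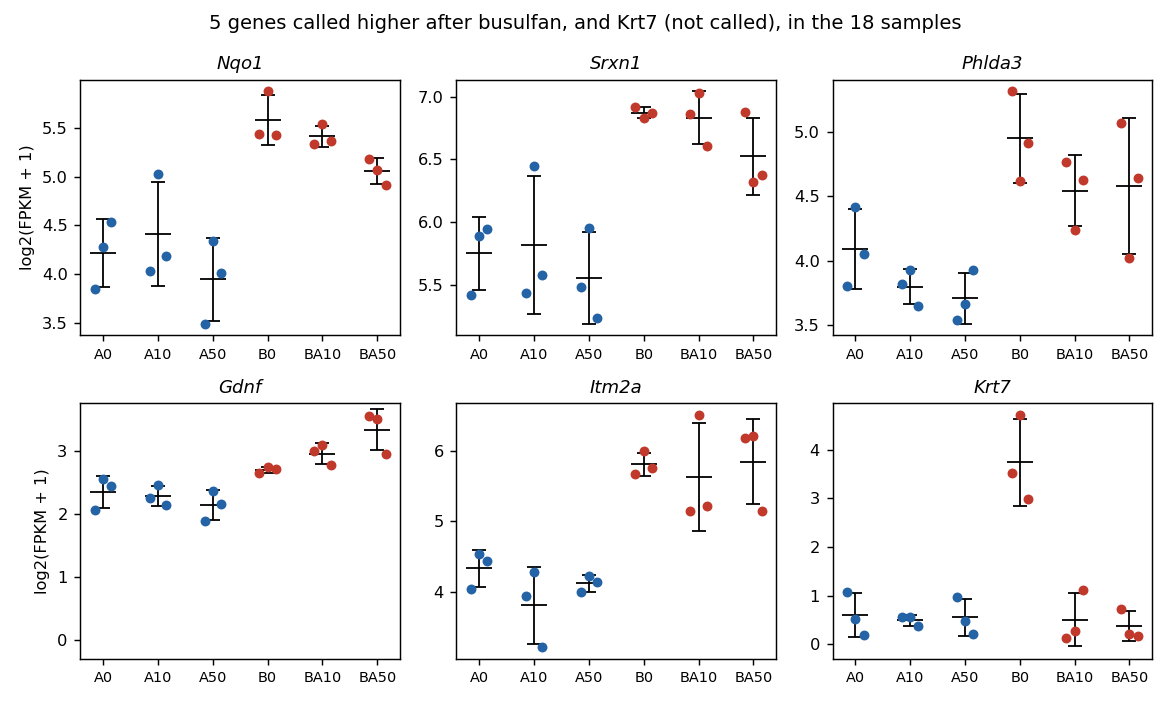
FPKM of 6 genes in the 18 samples on the log2(FPKM + 1) scale, with blue points for samples without busulfan, red points for busulfan samples, and bars for the mean and SD of the 3 samples of a group. Nqo1, Srxn1, Phlda3, Gdnf and Itm2a are higher in the busulfan groups at each dose, and Krt7 is high in the 3 B0 samples alone (6.88 to 25.28 FPKM).

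Targets of p53, the factor that responds to DNA damage, rose in part. Of 23 genes, 12 rose, 1 fell and 10 were not called, with a median of 0.29, and 6 were called higher without the samples at 0 μg/mL. Medians of the Sertoli, Leydig and endothelial marker lists were 0.30, 0.31 and 0.28. Those of the myoid, fibroblast and immune lists were 0.064, -0.12 and -0.042. Phlda3, an inhibitor of AKT signaling, had 10.61, 13.07 and 20.36 FPKM without busulfan and 15.2, 24.01 and 38.9 FPKM after it (0.83 ± 0.13, limma adjusted p 9.81e-05). Eda2r, a receptor of the TNF receptor family, had 2.14, 2.28 and 2.86 FPKM against 2.47, 5.37 and 6.09 FPKM (0.74 ± 0.10), and Ccng1, cyclin G1, had 27.28, 37.83 and 42.57 FPKM against 40.34, 60.99 and 67.41 FPKM (0.66 ± 0.08). In each of these genes the highest sample without busulfan overlapped the lowest busulfan samples. Cdkn1a, the p21 cell cycle inhibitor, and Mdm2, the ligase that degrades p53, did not pass the test (0.48 and 0.04). Pmaip1, which encodes the death protein NOXA, fell: it had 4.99, 6.18 and 7.4 FPKM without busulfan and 1.18, 3.12 and 5.25 FPKM after it (-0.91 ± 0.14, limma adjusted p 6.2e-05).

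The BCL2 family, which sets the threshold of mitochondrial cell death, had 15 tested members of 16, with 3 rises, 2 falls and a median of 0.094, beside 13.7% of all genes tested called higher and 25.1% called lower. Bax, which opens the mitochondrial membrane, rose by 0.40 ± 0.09, and the protective members Bcl2l2 and Mcl1 rose by 0.32 ± 0.08 and 0.24. Bad, a promoter of cell death, fell with arms apart from 30.95, 32.44 and 43.37 FPKM to 21.99, 24.13 and 28.79 FPKM (-0.48 ± 0.06), as did Pmaip1 without that separation. The rises in this list numbered 6 after quantile normalization and 5 with sample quality weights.

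Cytokine and chemokine genes rose in 8 of 16 tested cases (19 listed), with 0 falls by limma or at an unadjusted p under 0.05, and a median of 0.42. Without the samples at 50 μg/mL, 3 rises were called. Cxcl1, which draws neutrophils, had 96.48, 117.72 and 240.93 FPKM without busulfan and 163.85, 229.29 and 278.72 FPKM after it (0.76 ± 0.13, limma adjusted p 0.00017). Ccl2, which draws monocytes, had 93.88, 105.79 and 167.7 FPKM against 133.35, 166.06 and 249.41 FPKM (0.67 ± 0.15). Il6 rose by 0.76 ± 0.17, but was not called without the samples at 0 or at 50 μg/mL, and Il1a rose by 0.36 ± 0.08. The highest value without busulfan overlapped the busulfan values in each of these genes. The markers of macrophages and other immune cells did not move with them: of 14 tested (18 listed), limma called 0, 0 had an unadjusted p under 0.05, and their summed level was 356.53 to 989.38 FPKM without busulfan and 346.96 to 1103.68 FPKM after it.

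Signals of the germ cell niche moved in both directions. Of 17 tested genes (18 listed), 6 rose and 2 fell (13.7% and 25.1% of all genes tested), with a median of 0.27, and without the samples at 50 μg/mL 2 rises were called. Gdnf, the Sertoli cell factor that maintains spermatogonial stem cells, had 2.72, 3.79 and 4.86 FPKM without busulfan and 5.31, 6.8 and 10.74 FPKM after it. Every busulfan sample lay above every other sample, and the change was 0.74 ± 0.13 (limma adjusted p 0.000176), with 0.35, 0.67 and 1.20 at 0, 10 and 50 μg/mL. Kitl, the ligand of KIT, had 28.79, 33.69 and 45.72 FPKM against 40.57, 53.4 and 60.85 FPKM (0.54 ± 0.10), while its receptor Kit fell, as given above. Csf1, Fgf2, Jag1 and Wnt5a rose by 0.51, 0.40, 0.34 and 0.29. Rdh11 and Aldh1a2, enzymes on the way to retinoic acid, fell by 0.70 and 0.47, and for Aldh1a2 the arms were apart (65.49 to 85.89 FPKM against 39.28 to 65.36 FPKM).

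Markers of Sertoli and Leydig cells had some rises and no falls. Of 20 tested Sertoli cell genes (21 listed), 5 rose and 0 fell, with a median of 0.30. At an unadjusted p under 0.05, 9 were higher and 0 lower, beside 3099 higher and 4449 lower of all 15790 genes tested. The list's medians were 0.046, 0.505 and 0.320 at 0, 10 and 50 μg/mL. The 5 called were Gdnf, Trf, transferrin (0.62 ± 0.14), Inha (0.48), Defb19 (0.42 ± 0.13) and Gata4 (0.31 ± 0.09). At the same 3 doses Trf changed by 1.02, 0.75 and 0.09, Defb19 by 0.39, 0.55 and 0.33, and Gata4 by 0.02, 0.47 and 0.45. Defb19 lost its call in 4 of 32 alternatives, Gata4 in 2 and Trf in 1. The count of called rises was 8 after quantile normalization or median ratio scaling, 3 without the samples at 50 μg/mL and 1 without those at 10 μg/mL. Sox9 and Wt1, which define the cell type, were not called (0.35 and 0.16), and both were present (medians without busulfan of 14.48 and 42.21 FPKM). The defining markers of Leydig cells were measured too: of 10 tested genes (11 listed), 2 rose and 0 fell, and at an unadjusted p under 0.05, 4 were higher and 0 lower. The rises numbered 5 without BA10 replicate 2 and 4 without A50 replicate 3, B0 replicate 1 or BA50 replicate 1. They numbered 1 after quantile normalization, without the samples at 0 or at 50 μg/mL, and without any of A0 replicate 2, A10 replicate 2, A50 replicates 1 and 2, B0 replicate 3, BA10 replicate 1, and BA50 replicate 3. Star, which carries cholesterol into mitochondria for steroid synthesis, had 141.37, 192.95 and 238.47 FPKM without busulfan and 236.64, 351.61 and 492.35 FPKM after it (0.75 ± 0.13, limma adjusted p 0.000178), whereas Insl3 (0.57) and Cyp11a1 (0.37) were not called. Fdx1 rose by 0.32 ± 0.12, and lost its call in 13 of 32 alternatives.

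In the remaining somatic lists, 1 of 11 myoid genes rose, namely Tpm2 (0.33 ± 0.12). Its changes were 0.61, -0.07 and 0.44 at 0, 10 and 50 μg/mL, not of 1 direction, and it lost its call in 12 of 32 alternatives. Of 15 fibroblast and matrix genes, 1 rose (Fn1, fibronectin, from 59.33, 69.74 and 127.21 FPKM to 113.59, 139.2 and 178.75 FPKM, 0.86 ± 0.14). The medians of both lists were near zero (0.064 and -0.12) and that of the fibroblast list turned positive under at least 1 alternative. Of 12 endothelial genes, 4 rose (Cdh5, Pecam1, Eng and Tek, by 0.23 to 0.46) and none of these was called at a single dose. Endothelial rises numbered 0 without the samples at 0 μg/mL, 1 without those at 10 μg/mL, 2 without BA10 replicate 1 or BA50 replicate 1, and 8 without BA50 replicate 2. Cholesterol synthesis genes had 2 rises among 22 (Ebp 0.38 and Cyp51 0.37, both lost without the samples at 50 μg/mL) and a median of 0.11, beside 13.7% of all genes called higher. Cyp51 lost its call in 11 of 32 alternatives.

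The largest rises were of a different kind from the falls, because several rested on few samples. The 10 genes were Cfd (2.31), Cck (2.27), Ier3 (2.13), Tmem254c (1.76), Itm2a (1.68), Car3 (1.65), Akr1c18 (1.51), Retn (1.48), Camp (1.32) and Lpl (1.27). Among these, Itm2a, an integral membrane protein gene on the X chromosome, was the gene with arms apart: it had 8.25, 16.66 and 22.17 FPKM without busulfan and 34.42, 53.3 and 90.24 FPKM after it (1.68 ± 0.20, limma adjusted p 2.56e-06). Akr1c18, which inactivates progesterone, had 0.52, 1.33 and 3.11 FPKM against 2.9, 5.45 and 13.51 FPKM, and Lpl, lipoprotein lipase, 7.79, 9.1 and 15.67 FPKM against 14.8, 25.44 and 62.45 FPKM. The neuropeptide gene Cck spread from 1.52 to 54.54 FPKM without busulfan and from 9.07 to 336.94 FPKM after it, and lost its call in 12 of 32 alternatives. The stress gene Ier3 spread from 0.85 to 231.49 FPKM without busulfan, with the 3 A50 samples at 0.85, 1.48 and 2.59 FPKM, and lost its call in 18 of 32. Tmem254c has near-identical neighbours that may share its reads.

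Fat cell genes rose, with their highest values in B0 samples. Of 8 tested (9 listed), 7 rose and 0 fell, also at an unadjusted p under 0.05, with medians of 2.25, 0.48 and 0.33 at 0, 10 and 50 μg/mL, and 3 were called higher without the samples at 0 μg/mL. Cfd, the complement factor made by fat cells, had 113.68, 18.21 and 42.54 FPKM in the 3 B0 samples, at most 6.18 FPKM in BA10, at most 2.4 FPKM in BA50 and at most 1.61 FPKM without busulfan. Car3 was likewise high in B0 (83.24, 11.12 and 9.25 FPKM) and at most 1.06 FPKM in all other samples. Fabp4, a fatty acid binding protein that endothelium also makes, was raised in more samples, with 35.93, 57.75 and 80.41 FPKM without busulfan and 62.16, 106.35 and 567.16 FPKM after it (1.18 ± 0.23, limma adjusted p 0.000609). The summed level of the fat cell list was 45.18 to 87.52 FPKM without busulfan and 69.53 to 893.78 FPKM after it, and its part in the other rises was not tested. Pparg, the master factor of fat cells, was not called (0.06).

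Keratin genes of simple epithelium behaved in the same manner at 0 μg/mL without being called over the doses. Krt7 had 10.54, 25.28 and 6.88 FPKM in the B0 samples and 0.1 to 1.18 FPKM in all others, with changes of 3.14, 0.02 and -0.19 at the 3 doses and the smallest p of the interaction (limma adjusted p 0.403). Krt8 had 22.03, 58.87 and 20.65 FPKM in B0, 2.29 to 8.29 FPKM in the other 15 samples, and changes of 2.58, -0.10 and -0.26. Of the 9 genes of the list, Cldn4 rose (0.58 ± 0.16) and Epcam fell (-0.45 ± 0.14), each lost in some alternatives. Zfp54, a zinc finger gene, came next by the interaction, with changes of -0.07, -0.68 and -0.89 (limma adjusted p 0.463). Markers of the epididymis, the duct beside the testis, gave 1 fall among 4 tested (11 listed), that of Rnase10 (-1.02 ± 0.16), and the defining Lcn5 and Adam7 were at 0.25 FPKM or less in every sample. Limma called 0 of 3 tested red blood cell genes (5 listed), and 0 had an unadjusted p under 0.05.

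Below a log2 size of 1, some genes moved by nearly the same amount at each dose and were still called at no dose alone. The pooled fit counts a difference between doses as residual spread, so a choice by the smallest p favours even changes. Such rises, taken by the smallest p, included Rras2, Pter, Slc6a8 and Blcap. Rras2, a small GTPase, had 81.99, 106.8 and 124.13 FPKM without busulfan and 123.86, 137.06 and 164.52 FPKM after it, with changes of 0.39, 0.43 and 0.40 and a pooled change of 0.41 ± 0.08 (limma adjusted p 0.000577). Slc6a8, the creatine transporter, had 23.91, 27.18 and 32.0 FPKM against 26.48, 32.9 and 38.65 FPKM, with changes of 0.28, 0.31 and 0.28. Pter and Blcap rose by 0.40 and 0.28. The arms of each overlapped in part. The 5 matching falls were Srpk1, a kinase of splicing factors (57.41, 77.41 and 96.33 FPKM against 39.03, 54.43 and 77.03 FPKM), Gtf2b, the general transcription factor TFIIB (changes of -0.26, -0.26 and -0.27), Fbxo5, an inhibitor of the anaphase-promoting complex (-0.47 ± 0.09), Slc9b1, a sodium/proton exchanger (-0.71 ± 0.14), and AW554918 (-0.50 ± 0.10).

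Rises were spread unevenly over the chromosomes. The single X chromosome of the male is active in somatic cells and spermatogonia, is silenced in pachytene spermatocytes and is partly active again in spermatids. Of 705 tested X-linked genes, 155 were called higher (22.0%) and 115 lower (16.3%), whereas of 13950 autosomal genes 14.1% were called higher and 26.4% lower. X was the only chromosome of those plotted with more calls higher than lower. The median change was 0.161 on X and 0.0035 on the autosomes, and X lay above the autosomes at each dose (0.073, 0.229 and 0.135 against -0.045, 0.017 and -0.015). X also lay above the autosomes under each of the 32 alternatives computed. Itm2a, Eda2r, Slc6a8 and Ebp are X-linked genes among the rises named above, and Gm364 and Ccnb3 among the falls. Genes of a chromosome are not replicates, and this is a description.

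**Figure D5:**
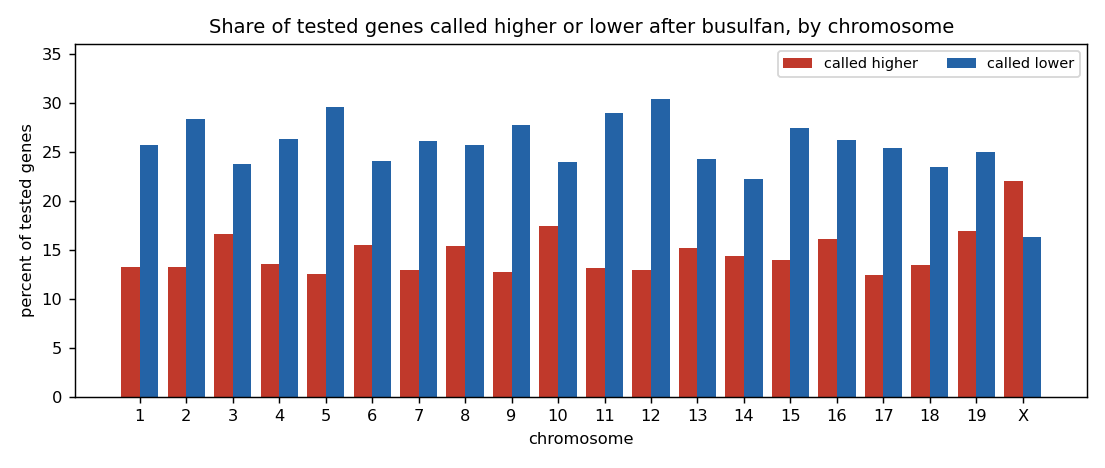
Bars give the percent of tested genes on each chromosome that were called higher (red) or lower (blue) over the 3 doses. On each of chromosomes 1 to 19 the blue bar is the taller (22.2% to 30.4%), and on X the red bar is (22.0% against 16.3%).

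Of the 99 genes singled out by the rule for naming, 94 were called. Their exact two-sided permutation p within dose (8000 arrangements) was at most 0.035, and 54 had 0.00025, the smallest that the design can give. These genes were chosen by their change or p in the same samples, so the exact p values describe them and are no separate support.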

How the data were processed

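Cultured mouse testes of 6 groups were measured by RNA-seq, with 3 samples each. The authors made libraries of poly(A) RNA for Illumina sequencing and deposited 1 table of FPKM per gene and sample. The submitters' processing notes name HISAT, Bowtie2, RSEM and the build GRCm38.p5, while the study's methods name SOAPaligner and RPKM, and which of these made the table is not stated. Read counts are not given in the sources used here, so the depth is unknown and count tests were not run.

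Gene numbers were matched to RefSeq symbols (20656 of 20811), and 1846 gene models of the table carry no gene number. Samples were grouped by their labels. Genes with at least 1 FPKM in 3 samples were tested on log2(FPKM + 1), with a pseudocount of 1, by limma 3.58.1 under R 4.3.3, using lmFit and trended eBayes: busulfan with AOS dose as a block (14 residual and 2.62 prior degrees of freedom), the change at each dose, and the interaction. Single genes were also tested by exact two-sided permutation within dose. The scripts were tested on simulated data. Promoters were searched and plots drawn in Python 3.11.15 (matplotlib 3.10.9, NumPy 2.4.6, pandas 2.3.3). Promoters came from RefSeq (GRCm38.p6) and were used for their letters, not for the mapping of the values.

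Among called genes with a symbol, the same sign at 3 doses and a higher arm mean of at least 2 FPKM, the text names the 10 largest rises and the 10 largest falls, and the 5 smallest p among rises and among falls under 1 in log2 size that were called at no single dose. It also names up to 4 called members of each list by p (where none was called, the member with the smallest p) and the 3 smallest p of the interaction. Other genes were named after their values were seen, and some results that the rule selects are not reported here. The comparison, the gene lists and the motifs were chosen with earlier results of these data known, so their counts are descriptions and no list was tested as a set. H1f9 and Lcn8 of the lists were not matched. Alternatives were the replicate number as a block, other pseudocounts, filters, scalings, variance models and limits, and leaving out each sample and each dose.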

Additional observations from a re-analysis of the deposited data

Results flagged for a closer look

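Krt8, a keratin of simple epithelium, stood out because its 3 B0 samples lay above the 3 A0 samples (20.65 to 58.87 FPKM against 2.29 to 8.29 FPKM) while its 3 BA50 samples lay below the 3 A50 samples (3.39 to 3.70 FPKM against 4.35 to 4.50 FPKM). The difference between doses did not pass the test (interaction adjusted p 0.463 by limma over 15790 genes).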

How the results depend on the processing

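No gene called over the 3 doses was called in the opposite direction under any of the 32 alternatives that refit the samples, and 72 of the 94 named genes that were called kept their call in all of them. Genes called higher numbered 3812 after quantile normalization, 3626 with sample quality weights, 1331 without the samples at 10 μg/mL and 810 without those at 50 μg/mL, against 2165. With a log2 limit of 1 they numbered 30, and 13 at an adjusted p of at most 0.001, and the genes called lower numbered 570 and 557. Leaving out 1 sample at a time gave 1747 to 2363 higher and 3743 to 4276 lower. Fitted on its own 6 samples, the dose of 10 μg/mL gave 35 higher and 1088 lower. The interaction called 1 gene with a pseudocount of 0.1 (adjusted p 0.034 by limma), and 0 or 1 when 1 sample was left out (1 without B0 replicate 1 and 1 without B0 replicate 2). With the replicate block, the calls numbered 2078 higher and 3914 lower, and with a block within dose 1794 and 3720. The deviations of same-numbered samples had correlations of -0.43 to 0.28 in 9 pairs, so the numbers were not taken to pair samples. Rises numbered 7 after quantile normalization and 10 with sample quality weights in endothelial genes, 8 and 14 in round spermatid genes, and 2 and 9 in elongating spermatid genes. Krt7, Krt8 and Hba-a1, which were not called, changed sign without the samples at 0 μg/mL (-0.09, -0.18 and -0.15). Where counts moved, the cause was not tested. The unknown depth limits what can be said of genes under 1 FPKM.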
